A study of Mus musculus with 2 samples.

Results

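Presentation of peptides by MHC class I molecules needs a set of proteins in the endoplasmic reticulum (ER), and the genes of this set were examined here together with that of a transactivator, 9 genes in all. They were taken by symbol from the count tables, and all 9 were found among the 48321 genes listed. *Tap1* and *Tap2* encode the paired chains of the transporter that moves peptides from the cytosol into the ER. *Tapbp* (tapasin) and *Tapbpl* (TAPBPR) encode a pair of related proteins that edit the bound peptide. *Calr* (calreticulin), *Canx* (calnexin) and *Pdia3* (ERp57) encode chaperones and an oxidoreductase, *Erap1* encodes the aminopeptidase that trims peptides in the ER, and *Nlrc5* encodes the transactivator of class I genes. NLRC5 is thus a regulator and no part of the loading machinery itself.

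As background, proteasomes cut proteins in the cytosol, TAP carries the products into the ER, and ERAP1 shortens those that are too long for the class I groove. An empty class I heavy chain first folds on calnexin, then pairs with B2m and enters the peptide-loading complex, where tapasin, ERp57 and calreticulin hold it next to TAP until a peptide fits. NLRC5 binds no DNA by itself and acts through the RFX, CREB and NF-Y factors on the promoters of class I genes, and it is known to be abundant in lymphocytes.

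The RNA came from sorted CD4- mature thymocytes of *MHC-IIo:CD8ab-Tg* mice (C57Bl/6 mice with *I-Ab-/-*, the *Rosa26 8a/8b* insertion, *Cd8 Δab/Δab* and *Cd4-Cre*), in a single group of 2 libraries. These mice lack MHC class II, since its I-Aβ chain is missing, both copies of the endogenous *Cd8a* and *Cd8b1* genes are disrupted, and CD8α and CD8β are made from cDNAs in the *Rosa26* locus once Cre, driven by *Cd4*, has removed a stop cassette. The age of the mice is not given in the sources used here. The labels do not agree on the cells, since the titles name cells without either co-receptor and the cell type fields name CD8+ cells. Nothing in the labels says that the replicates were separate mice. Genes of the sex chromosomes, given below, differed between the libraries as between a male and a female. An SD can thus hold more than technical spread, and the part of sex in it was not tested. Wild-type cells were not analysed here, so every value is a level in transgenic cells, and no effect of the genotype was tested.

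Reads counted on genes numbered 16732644 in replicate 1 and 16245849 in replicate 2, which was 40.6% and 41.2% of the uniquely aligned reads. Levels are given as CPM (counts per 1000000 counted on genes), and 3 counts, the smallest level taken as shown at this depth, equal 0.179 and 0.185 CPM. To compare genes with each other, CPM was divided by the length in kb of all annotated exons of the gene together. The defining T-cell markers were present, with 6 of 6 at 1 CPM or more in both libraries and a summed level of 2844 and 2787 CPM. *Cd4* had 12 and 27 counts, and *Cd8b1* was at 780.3 ± 7.41 CPM (SD, n = 2), in which the cDNA and the endogenous gene are not separated. Markers of the other cell types searched were low. The sort could also hold iNKT and MAIT cells. Sets of markers for these and for γδ T cells were not searched. The summed level was 15.6 and 15.5 CPM over 5 markers of double-positive thymocytes, 4.18 and 5.17 CPM over 7 of thymic epithelium, 13.5 and 15.2 CPM over 5 of B cells, and 16.2 and 19.1 CPM over 8 of dendritic cells and macrophages. All 5 erythroid markers had 0 counts in both libraries. A low level of RNA from such cells and a low level in the thymocytes cannot be told apart in bulk RNA. The libraries differed at genes of the sex chromosomes, with 34 and 25266 counts of *Xist* and 2450 and 0 counts of *Ddx3y*, so that sex and library cannot be told apart. The sum over 4 markers of innate memory CD8 T cells was 840 and 1094 CPM, with 3 of the 4 at an adjusted p under 0.05 in the exact binomial test described below and *Eomes* at 196 and 355 CPM. The sum over 5 markers of mature thymocytes was 1970 and 1738 CPM, with 3 of the 5 at an adjusted p under 0.05. By the same test 4 of the 6 T-cell markers passed, as did 16.3% of all genes tested. Among genes with at least as many counts as *Tapbpl* it was 49.3%, and from these counts alone nothing particular to a marker list is read. In the exact test of edgeR described below, which adds variation between samples, the adjusted p of *Eomes* was 0.0119. That test had an adjusted p under 0.05 for 0.464% of all genes and for no other of the innate memory markers. The part of the marker differences in the differences given below was not tested.

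Together the 9 genes took 50461 counts in replicate 1 and 50205 in replicate 2, or 3016 and 3090 CPM. Every one of them was far above the limit set by 3 counts, from 1755 counts for *Tapbpl* in replicate 1 to 7932 for *Tapbp* in the same library. On the scale of CPM per kb they spanned 6.27-fold, with *Calr* highest and *Erap1* lowest. Among the 11833 protein-coding genes ranked on that scale, *Calr* held rank 165, *Tapbp* 220, *Pdia3* 244, *Tap2* 352, *Tap1* 365, *Canx* 525, *Nlrc5* 732, *Tapbpl* 770 and *Erap1* 1562. All 9 are protein-coding genes of GENCODE M21 on GRCm38 (mm10).

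**Figure D1:**
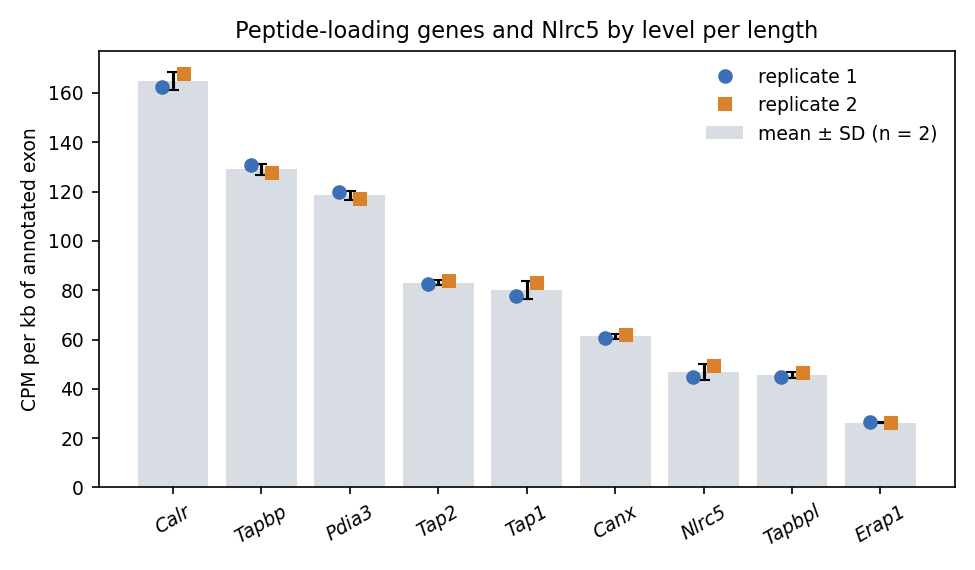
Level of the 9 genes in CPM per kb of annotated exon (y axis from 0), with replicate 1 as circles, replicate 2 as squares and bars at mean ± SD (n = 2). *Calr* is highest at 165 and *Erap1* lowest at 26.3, and only *Tap2* with *Tap1* and *Nlrc5* with *Tapbpl* overlap with the next gene in the order.

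The transporter genes lie close together in the MHC on chromosome 17. *Tap1* extends from 34187553 to 34197225 on the plus strand, with 11 exons in its principal transcript, and *Tap2* from 34203527 to 34216321 on the same strand, with 12. *Tap1* had 7113 counts in replicate 1 and 7359 in replicate 2, which equal 425 and 453 CPM and a mean of 439 ± 19.7 CPM (SD, n = 2). *Tap2* had 5214 and 5146 counts, which equal 312 and 317 CPM and a mean of 314 ± 3.64 CPM (SD, n = 2). Replicate 2 was thus the higher library for both chains of the transporter on this scale, an order that turned for *Tap2* with each other library scaling tried. Per kb, *Tap1* was at 77.6 and 82.7 and *Tap2* at 82.4 and 83.8, so their ranges over the libraries overlapped. The ratio of *Tap1* to *Tap2* per kb was 0.942 in replicate 1 and 0.987 in replicate 2, or 0.965 ± 0.0321 (SD, n = 2). This ratio depends on the length used. It was above 1 with the length of the longest transcript (1.23 ± 0.0410), with the coding length (1.35 ± 0.0451) and with the principal transcript (1.63 ± 0.0543; SD, n = 2 for each), so no order of these chains is given.

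The same stretch holds the genes of a pair of immunoproteasome subunits, which cut the peptides that TAP transports. *Psmb9* runs away from *Tap1* on the minus strand, and *Psmb8* lies between *Tap1* and *Tap2*. The RefSeq starts of *Tap1* and *Psmb9* have 225 bases between them, and their promoter windows of 300 bases share 275 bases. Per kb, *Psmb8* was at 117 ± 3.27 and *Psmb9* at 45.7 ± 4.40 (SD, n = 2). Per kb of all annotated exons, *Psmb9*, which shares its promoter window with *Tap1*, was at 42.6 and 48.8 against 77.6 and 82.7 for *Tap1*. No other length was tried for *Psmb8* and *Psmb9*, so no order of these genes and *Tap1* is given. *Psmb9* and *Tap1* share 212 bases of exon on opposite strands, or 3.87% of the exon length of *Tap1*. For *Tap2*, 533 bases (14.1%) lie in exons of the noncoding gene *Gm15821* and 165 bases (4.36%) in those of the antisense gene *Gm20496*, which had 1530 and 1607 and 2166 and 2301 counts in the 2 libraries. The strand setting of the counting is not given in the sources used here, and reads of such partners are not told apart in these counts.

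**Figure D2:**
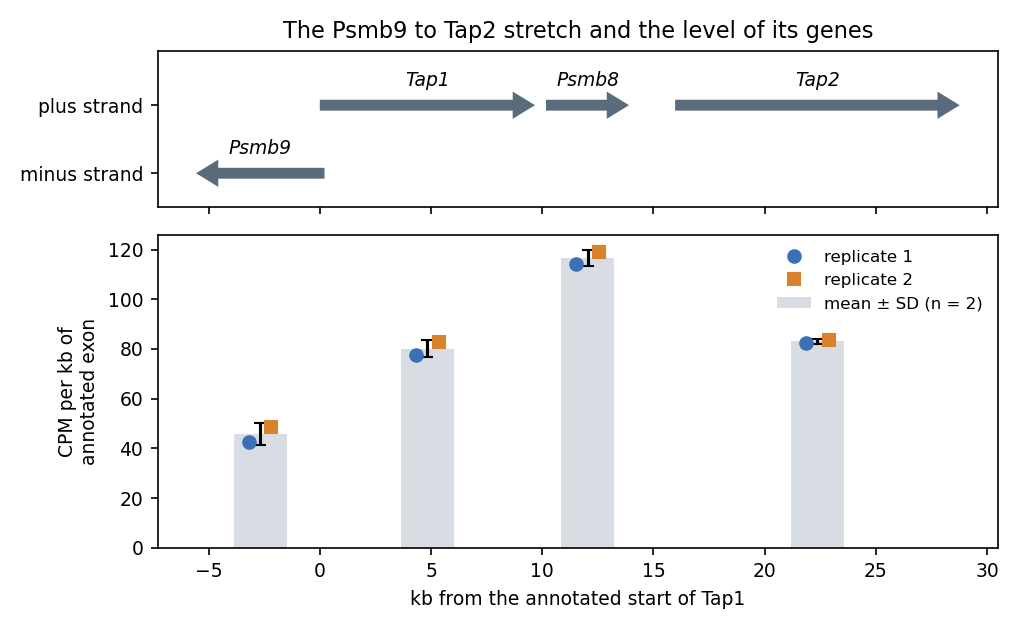
Annotated extent and strand of *Psmb9*, *Tap1*, *Psmb8* and *Tap2* (upper panel) and their level in CPM per kb of annotated exon (lower panel, from 0; circles replicate 1, squares replicate 2, bars mean ± SD, n = 2) against the distance in kb from the start of *Tap1*. The 4 genes lie between -5.57 and 28.8 kb. With this length, the only one tried for *Psmb8* and *Psmb9*, *Psmb8* is highest at 117 and *Psmb9* lowest at 45.7.

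The tapasin gene *Tapbp* lies on chromosome 17 from 33915899 to 33929292 on the plus strand, on the centromeric side of the transporter genes, and has 8 exons in its principal transcript. Its counts were 7932 in replicate 1 and 7507 in replicate 2, or 474 and 462 CPM, with a mean of 468 ± 8.45 CPM (SD, n = 2). *Tapbpl*, its relative outside the MHC, lies on chromosome 6 from 125223933 to 125231860 on the minus strand and has 7 exons. It had 1755 and 1771 counts, or 104.9 and 109.0 CPM, with a mean of 106.9 ± 2.92 CPM (SD, n = 2). Per kb, *Tapbp* was at 130.7 and 127.4 and *Tapbpl* at 44.6 and 46.3, without overlap, and the ratio of *Tapbp* to *Tapbpl* was 2.84 ± 0.129 (SD, n = 2). *Tapbp* stayed above *Tapbpl* with each of the other lengths tried, with ratios from 3.55 to 4.24. Tapasin bridges class I and TAP, and per kb the ratio of *Tapbp* to *Tap1* was 1.61 ± 0.101 (SD, n = 2). *Tapbp* has the largest overlap among the 9 genes, since 904 bases (24.9%) of its exons lie in the antisense gene *Gm19412*, with 635 and 689 counts, and 149 bases in *Zbtb22* on the same strand. With exons shared with other genes left out of the length, *Tapbp* was the highest of the 9 genes, at 182 per kb against 165 for *Calr*. That length still divides all counts of a gene, so it can only raise the level of a gene with overlaps.

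*Calr*, *Canx* and *Pdia3* serve most glycoproteins of the ER and are not particular to class I. Calreticulin and ERp57 are soluble and are kept in the ER by a retrieval signal at the end of the protein, while calnexin and tapasin span the membrane and end in the cytosol. The last 30 bases of the coding sequence of these genes (GENCODE M21 transcripts, 5′ to 3′) are shown because they hold this difference, with the last 4 codons before the stop codon in capitals.
Calr: tcccctggccaagccAAGGATGAGCTGtag
Pdia3: aagaagaagaaggcaCAAGAGGACCTCtaa
Canx: ccaagaaacagaaagCCACGAAGAGAGtga
Tapbp: attcccaggaactcaAAGAAGTCACAGtaa
The first pair of sequences ends in the retrieval signal of calreticulin and its variant in ERp57, and the other pair has no such end. In *Tapbp* the capitals begin with a pair of lysine codons, the form of the dilysine retrieval signal known from membrane proteins of the ER.

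*Calr* lies on chromosome 8 from 84841850 to 84846934 on the minus strand and has 9 exons in its principal transcript. It had 7821 and 7841 counts, which equal 467 and 483 CPM and a mean of 475 ± 10.8 CPM (SD, n = 2). Per kb it was at 162 in replicate 1 and 168 in replicate 2, above each of the other 8 genes in both libraries. *Canx* lies on chromosome 11 from 50293961 to 50325673 on the minus strand and has 15 exons. It had 4753 and 4728 counts, which equal 284 and 291 CPM and a mean of 288 ± 4.93 CPM (SD, n = 2). Per kb the soluble lectin chaperone was above its membrane-bound relative in both libraries, with a ratio of *Calr* to *Canx* of 2.69 ± 0.0149 (SD, n = 2). *Pdia3* lies on chromosome 2 from 121413775 to 121438687 on the plus strand and has 13 exons. It had 6292 and 5972 counts, which equal 376 and 368 CPM and a mean of 372 ± 5.96 CPM (SD, n = 2). ERp57 is bound to tapasin by a disulphide bond in the loading complex, and the ratio of *Pdia3* to *Tapbp* per kb was 0.918 ± 0.00186 (SD, n = 2), from 0.917 in replicate 1 and 0.919 in replicate 2. It was 0.655 when exons shared with other genes were left out, which takes the length of *Tapbp* from 3628 to 2575 bases and that of *Pdia3* from 3139 to 3121. Windows of 50 bases that also occur in transcripts of other genes made up 0.343% of those in *Calr*, 0% in *Canx* and 0.0314% in *Pdia3*, and the pseudogene *Calr-ps* had 0 counts in both libraries. The share was 23.2% in *Tapbp*, 11.6% in *Tap2*, 10.7% in *Erap1*, 3.69% in *Tapbpl*, 3.33% in *Tap1* and 0.338% in *Nlrc5*, with either strand of the other transcripts counted.

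The promoters of *Calr* and *Canx* are printed because both hold the ER stress response element (ERSE), the motif through which folding stress is known to raise ER chaperones. It was searched on both strands as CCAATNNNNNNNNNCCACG, in which N is any base, and is in capitals below. The windows run from 180 bases before the RefSeq start to 10 bases from it, in the direction of transcription.
Calr, chr8:84846922-84847111, minus strand of GRCm38: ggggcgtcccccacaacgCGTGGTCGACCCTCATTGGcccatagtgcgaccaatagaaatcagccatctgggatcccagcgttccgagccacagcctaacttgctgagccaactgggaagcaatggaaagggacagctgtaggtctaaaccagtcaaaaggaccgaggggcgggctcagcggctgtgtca
Canx, chr11:50325664-50325853, minus strand of GRCm38: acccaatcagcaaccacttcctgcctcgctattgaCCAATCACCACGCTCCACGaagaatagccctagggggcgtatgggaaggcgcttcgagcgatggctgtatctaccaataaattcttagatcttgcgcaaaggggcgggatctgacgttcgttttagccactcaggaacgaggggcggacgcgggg
Counted from the start, the match begins at -162 in *Calr*, on the strand opposite to the gene, and at -145 in *Canx*, on the strand of the gene. Of 32851 RefSeq promoter windows of 300 bases, 39 hold this motif, or 0.119%. The motif contains the CCAAT box, which alone is in 37.4% of the windows. No match was in the windows of *Pdia3*, *Tapbp*, *Tap1* or *Erap1*, which says only that these letters are not there. These libraries hold a single condition and no measure of factor binding, so the matches are a description.

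*Erap1* lies on chromosome 13 from 74639568 to 74693201 on the plus strand and has 19 exons in its principal transcript. Its counts were 3230 in replicate 1 and 3084 in replicate 2, or 193 and 189.8 CPM, with a mean of 191 ± 2.26 CPM (SD, n = 2). Per kb it was at 26.5 and 26.1, the lowest of the 9 genes in both libraries, and its mean was the lowest with each of the 5 lengths tried. With the coding length its level of 68.6 ± 0.812 per kb overlapped that of *Nlrc5*, at 69.4 ± 4.78 (SD, n = 2). Of its exons, 834 bases (11.5%) lie in exons of *Cast* on the opposite strand, which had 2347 and 2238 counts. The window around the RefSeq start of *Erap1* holds the interferon-stimulated response element (ISRE), searched on both strands as GAAANNGAAA, and 30 bases of it are printed with the match in capitals.
Erap1, chr13:74639839-74639868, plus strand of GRCm38: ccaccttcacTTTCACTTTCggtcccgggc
The match begins at -4 from the start, on the strand opposite to the gene. This motif is in 3.44% of the 300-base windows. None of the windows of *Tap1*, *Tapbp*, *Calr*, *Canx* and *Pdia3* held it, which says only that these letters are not there. Windows for 6 of the 9 genes were used, and those of *Tap2*, *Tapbpl* and *Nlrc5* were not used here.

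*Nlrc5* lies on chromosome 8 from 94434356 to 94527272 on the plus strand and is the longest of the 9 genes, with 53 exons in its principal transcript. Its counts were 6351 in replicate 1 and 6797 in replicate 2, or 379.6 and 418 CPM, with a mean of 399 ± 27.5 CPM (SD, n = 2). The SD was 6.88% of the mean, the largest among the 9 genes, which ranged from 1.16% for *Tap2* upwards. Per kb it was at 44.7 and 49.3, and this range overlapped that of *Tapbpl*. *Ciita*, its relative that acts on class II genes, had 16 and 12 counts, or 0.956 and 0.739 CPM, and 0.0889 ± 0.0161 per kb (SD, n = 2) against 47.0 ± 3.23 for *Nlrc5*.

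**Figure D3:**
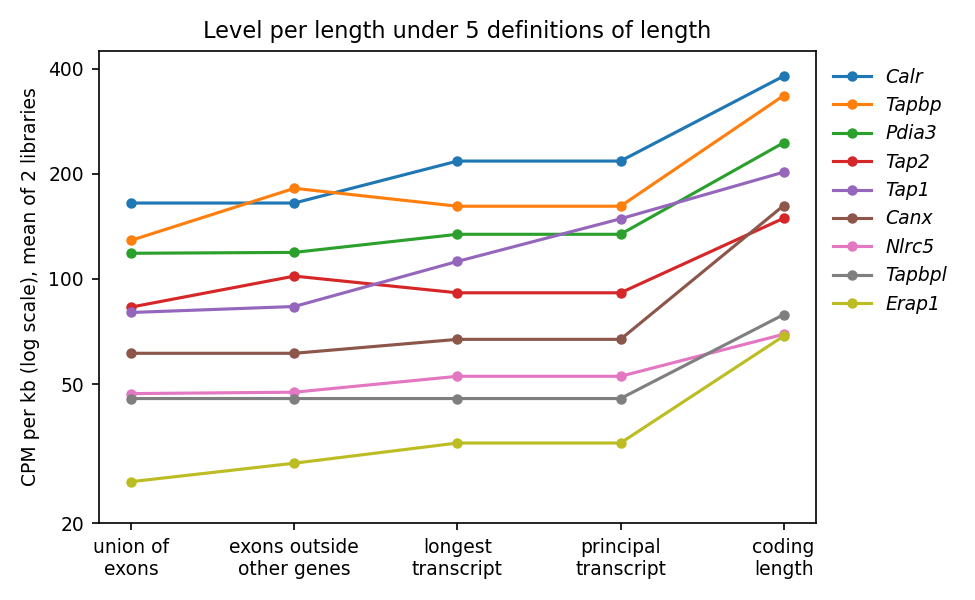
Mean level of each gene over the 2 libraries in CPM per kb (log scale) when the length is the union of annotated exons, exons outside other genes, the longest transcript, the principal transcript or the coding length. *Calr* is first under 4 of the 5 lengths and *Tapbp* under the remaining one, *Erap1* is last under all 5, and the lines of *Tap1* and *Tap2* cross.

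With 2 libraries of a single group, the spread of the 9 genes could be compared with that of all genes. Each of 15949 genes, those with 10 or more counts over the libraries together, was tested for a difference between replicate 2 and replicate 1 by an exact binomial test (two-sided, p-values adjusted by Benjamini-Hochberg). The test compares the libraries and not conditions, with counting error only. Genes that passed an adjusted p of 0.05 and also differed by 2-fold or more were 1.52% of all genes tested and 0 of the 9, and an unadjusted p under 0.05 was found for 27.7% of all genes and 3 of the 9. At an adjusted p under 0.05 alone it was 16.3% of all genes and 2 of the 9, while among the 1886 genes with at least as many counts as *Tapbpl* it was 49.3%. *Nlrc5* was higher in replicate 2 by 0.14 on the log2 scale (adjusted p = 8.76e-07) and *Tap1* by 0.09 (adjusted p = 0.00187, exact binomial test for both). The Wilson 95% confidence intervals of the libraries did not overlap for either gene, with 370 to 389 CPM in replicate 1 and 409 to 428 in replicate 2 for *Nlrc5*, and 415 to 435 and 443 to 463 for *Tap1*. Such intervals cover counting error only. For the other 7 genes the log2 ratio of replicate 2 to replicate 1 was between -0.04 and 0.06, with adjusted p-values from 0.168 for *Calr* to 0.752 for *Erap1*. The median of the 9 log2 ratios was 0.03, against 0.08 over all genes tested. In absolute size, with the totals on genes, the median was 0.04 for the 9 genes, 0.17 over all genes tested and 0.09 over the 1886 genes. The signed median over the 1886 genes was 0.07, so the absolute sizes hold a shift shared by many genes. Absolute medians with other scalings were not computed, and no greater steadiness of the 9 genes is read from these values.

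The direction and the size of these small differences depend on the scaling. With the totals on genes 6 of the 9 were higher in replicate 2, but with DESeq2 size factors, edgeR's TMM library sizes or totals without mitochondrial and ribosomal RNA genes only *Tap1* and *Nlrc5* were. With TMM the adjusted p of *Tap1* was 0.828 and that of *Nlrc5* was 0.0987, and *Tapbp* (2.49e-05), *Pdia3* (0.000507) and *Erap1* (0.0462) had the lower values in replicate 2, with log2 ratios of -0.12, -0.11 and -0.10 (exact binomial test). With DESeq2 size factors the calls at an adjusted p under 0.05 were *Tapbp* (0.000568), *Pdia3* (0.00522) and *Nlrc5* (0.0214). The exact test of edgeR adds variation between samples to the counting error, here a biological coefficient of variation (BCV) fixed at 0.1. By this test 0.464% of all genes had an adjusted p under 0.05, and the adjusted p was 1 for each of the 9 genes.

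**Figure D4:**
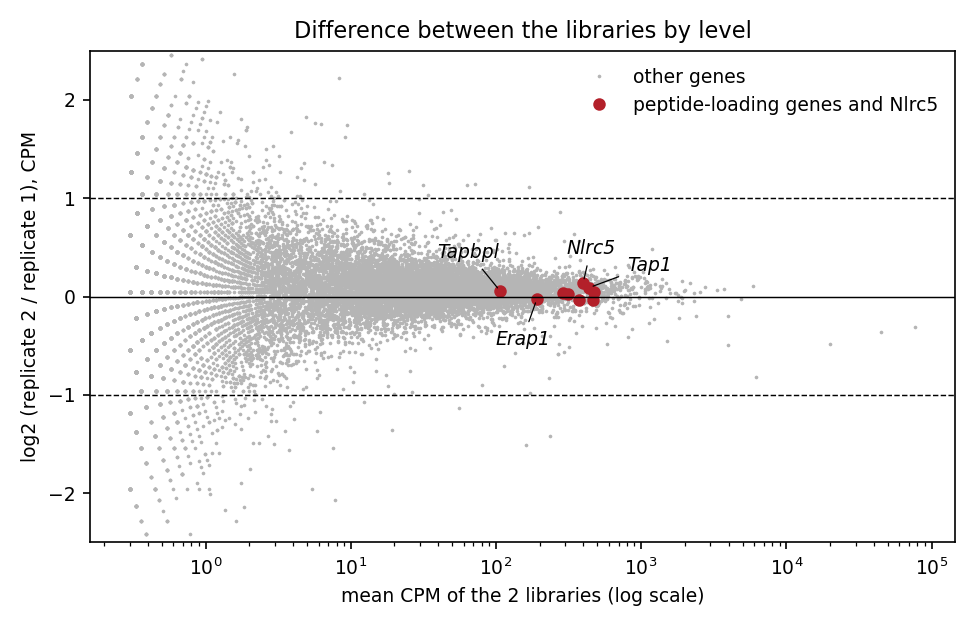
Log2 ratio of replicate 2 to replicate 1 (CPM, y axis) against the mean CPM of the libraries (log x axis) for genes with at least 10 counts, with the 9 genes in red and dashed lines at a 2-fold difference. The 9 genes lie between -0.04 and 0.14, and 87 of the 15949 genes are outside the y axis or at 0 in a library and are not drawn.

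Other genes of class I presentation were grouped into lists by their step. None of the listed genes met the 2-fold criterion between the libraries, against 1.52% of all genes tested. The class I molecules themselves, which receive the peptides, made up a list of 11 genes, and all 11 had at least 1 CPM in both libraries. They ranged from 2.38 per kb for *Mr1*, which presents vitamin metabolites to MAIT cells, to 2238 per kb for *B2m*, the shared light chain, with a median of 178. An adjusted p under 0.05 was found for 6 of the 11, against 16.3% of all genes tested and 49.3% of those with at least as many counts as *Tapbpl*, and the median log2 ratio was 0.04. Several of these heavy chains belong to a family of near-identical genes, so that their single counts are uncertain.

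The immunoproteasome and its activator, which cut and release the peptides, made up a list of 5 genes. All 5 had at least 1 CPM in both libraries, from 45.7 per kb for *Psmb9* to 152 per kb for *Psme1*, a subunit of the activator. Of the 5, 2 had an adjusted p under 0.05, and the median log2 ratio was 0.06. Peptidases of the cytosol and vesicles that trim or destroy peptides were lower as a list. All 8 had at least 1 CPM in both libraries, from 2.92 per kb for the oligopeptidase *Thop1* to 18.4 for *Nrd1* (nardilysin), each below the 26.3 per kb of *Erap1*. An adjusted p under 0.05 was found for 1 of the 8, with a median log2 ratio of 0.05.

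The partners of calreticulin, calnexin and ERp57 in folding and translocation made up a list of 14 genes, all with at least 1 CPM in both libraries. They ranged from 7.96 per kb for *Sec61g*, a subunit of the translocon, to 95.2 for *Hspa5*, the ER chaperone BiP, and their median was 36.2. With the length of all annotated exons, *Calr* and *Pdia3*, at 165 and 118 per kb, were above each gene of this list. Before division by length, *Hspa5* had a mean of 403 CPM and *Pdia3* 372 CPM, so this order rests on the length used. An adjusted p under 0.05 was found for 2 of the 14, with a median log2 ratio of 0.05. The list of transactivation held 14 genes, with the DNA-binding partners of NLRC5 and the factors of interferon and NF-κB signalling. At least 1 CPM in both libraries was reached by 13 of them, the exception being *Ciita*, and the highest was *Irf1*, an interferon-induced factor, at 68.6 per kb. An adjusted p under 0.05 was found for 5 of the 14, with a median log2 ratio of 0.12. The counts of all these lists at an adjusted p under 0.05 alone stand against the same 16.3% and 49.3%, and nothing particular to a list is read from them.

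**Figure D5:**
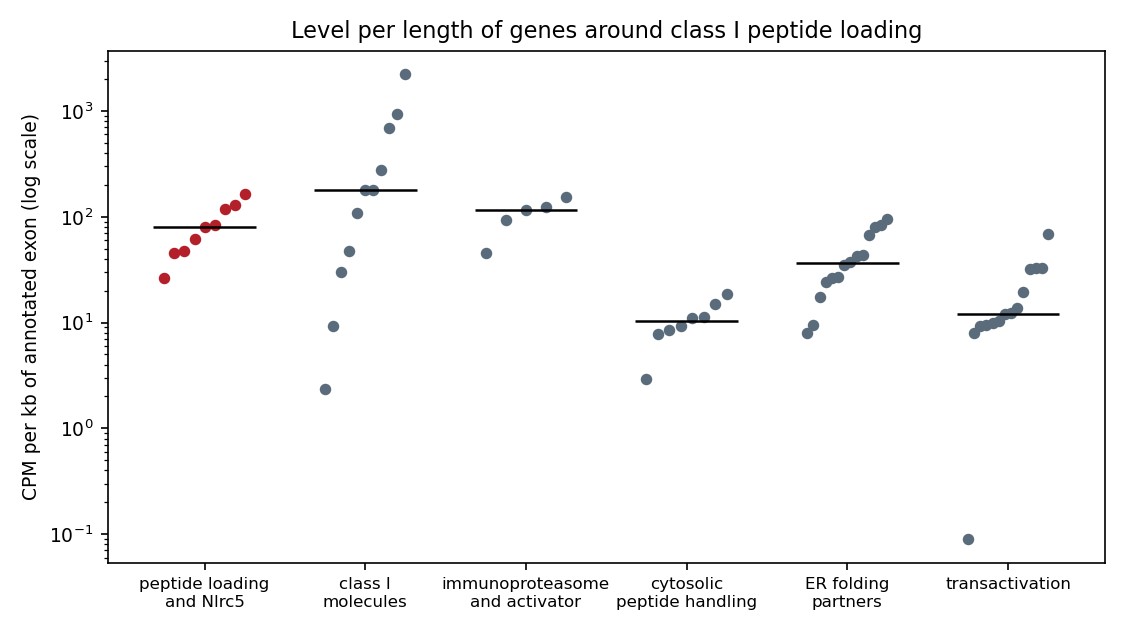
Mean level over the 2 libraries in CPM per kb of annotated exon (log y axis) of the 9 genes (red) and of each gene in the lists of other genes of class I presentation (grey), with a line at the median of each list. With this length, the only one tried for the lists, the 9 genes lie between 26.3 and 165, above the list of cytosolic peptide handling (2.92 to 18.4). The lowest point of all is *Ciita* at 0.0889.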

How the data were processed

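RNA-seq was analysed in 2 libraries of 1 group. From poly(A) RNA the authors made libraries, sequenced single-end 50-base reads, mapped them to mm10 with TopHat2 2.1.1 and counted them per gene with HTSeq 0.6.1 (versions as in the submitters' processing notes). They deposited raw counts per gene without normalization. The annotation and strand setting used for counting are not given in the sources used here. Lines for unassigned reads (55.9% without a gene in both libraries, 3.52% and 2.92% ambiguous) were left out of totals. Reads aligned to several places were not counted.

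From these counts, CPM of the total on genes, mean and SD over 2 replicates, and CPM per kb were computed, with exon lengths from GENCODE M21 on GRCm38, which held 46394 of 48321 symbols. Only counting error is covered by the Wilson 95% intervals and by the floor of 3 counts. Libraries were compared by an exact binomial test (two-sided, adjusted by Benjamini-Hochberg over genes with at least 10 counts; scipy 1.17.1, statsmodels 0.14.6, Python 3.11.15). Calls needed an adjusted p under 0.05 with a difference of 2-fold or more. On simulated data (48321 genes, 15984 of them tested) 200 of 200 genes changed 4-fold were recovered, with 3 false calls. This change is far larger than the log2 ratios of the 9 genes (-0.04 to 0.14), so the simulation cannot test differences of that size. The binomial test holds counting error only, and its false calls under variation between samples are not read from this simulation. Alternatives used edgeR 4.0.16 (TMM, and its exact test with the biological coefficient of variation fixed at 0.1, against an estimate of 0.105), DESeq2 1.42.0 size factors in R 4.3.3, other minimum counts, other gene lengths, and totals that leave out 393 mitochondrial and ribosomal RNA genes.

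By the rule for naming, the genes named are the 9 genes and the highest and lowest gene of each list. The rule also covers listed genes called between the libraries, and none was called. Outside this rule, *Xist* and *Ddx3y* were named as genes of the sex chromosomes and *Psmb8* as a neighbour of *Tap1*. *Cd4*, *Cd8b1* and *Eomes* were named as markers. *Rfx5*, *Rfxap*, *Rfxank*, *H2-Q6*, *H2-Q7*, *H2-K1* and *H2-D1* were named after their values were seen. *Gm15821*, *Gm20496*, *Gm19412*, *Zbtb22*, *Cast* and *Calr-ps* were named for shared sequence. The 9 genes and all lists were chosen with earlier results of these data known. Of the listed symbols, *Nrdc*, *Hm13* and *Ero1a* were not in the count tables, which name *Nrd1* and *Ero1l*. Promoter windows, from 250 bases before to 50 bases after a start, are from RefSeq on GRCm38. No comparison between genotypes was made.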

Additional observations from a re-analysis of the deposited data

How the results depend on the processing

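No paired analysis was possible because the study has a single group. The levels rose by more than 1 SD when mitochondrial and ribosomal RNA genes were left out of the totals, since the totals became smaller. The means were then 512 CPM for *Tap1*, 367 for *Tap2*, 547 for *Tapbp*, 125 for *Tapbpl*, 555 for *Calr*, 336 for *Canx*, 434 for *Pdia3*, 224 for *Erap1* and 465 for *Nlrc5*. With 2 replicates, leaving out 1 gives the value of the other library and cannot test stability, and no comparison of the libraries can then be made.

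The ratios per kb moved with the length. *Tap1* to *Tap2* was 1.23 with the longest transcript, 1.35 with the coding length, 1.63 with the principal transcript and 0.818 with exons outside other genes. The last pair of lengths was chosen after seeing the data. In the same order, *Tapbp* to *Tapbpl* was 3.55, 4.24, 3.55 and 4, and *Pdia3* to *Tapbp* was 0.831, 0.733, 0.831 and 0.655. *Tapbp* to *Tap1* was 1.44, 1.09 and 2.18 with the longest transcript, the principal transcript and exons outside other genes, and *Calr* to *Canx* was 3.24, 2.35 and 3.24 with the longest transcript, the coding length and the principal transcript.

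Of the 242 genes called between the libraries, 150 were higher in replicate 2 and 92 in replicate 1. The split was 98 and 100 with TMM, and 104 and 98 both with DESeq2 size factors and with totals that leave out mitochondrial and ribosomal RNA genes. With a minimum of 100 counts 55 genes were called, and 60 with the exact test of edgeR (BCV fixed at 0.1), which left 0 of the 9 genes past an adjusted p of 0.05.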

Other observations

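Genes other than the 9 were examined after their values were seen. *Rfx5*, which encodes the DNA-binding subunit of the RFX complex through which NLRC5 acts, had 728 counts in replicate 1 and 976 in replicate 2. Its log2 ratio of 0.47 was above that of *Nlrc5* (adjusted p = 2.19e-09, exact binomial test; adjusted p = 0.832 in the exact test of edgeR with a BCV of 0.1). Its partners *Rfxap* and *Rfxank* had log2 ratios of 0.09 and 0.16, with adjusted p-values of 0.688 and 0.135 in the exact binomial test.

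Among the class I molecules, *H2-Q6* and *H2-Q7* of the Qa-2 family were higher in replicate 2 by 1.48-fold and 1.40-fold, with 5005 and 7194 counts of *H2-Q6* and 16545 and 22428 of *H2-Q7*. *H2-K1* and *H2-D1*, which encode the classical heavy chains, had log2 ratios of 0.10 and 0.01. In the exact binomial test the adjusted p was 4.37e-24 for *H2-K1* and 0.595 for *H2-D1*, and it was under 0.05 for *H2-Q6* and *H2-Q7*. Single counts of near-identical genes in this family are uncertain, as said above. In the exact test of edgeR the adjusted p was 0.405 for *H2-Q6* and 0.698 for *H2-Q7*. These differences are between libraries that also differ at the genes of the sex chromosomes, and their part was not tested.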
